A study of Caenorhabditis elegans with 2 samples.

Results

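The small ribosomal subunit of Caenorhabditis elegans is built from 1 ribosomal RNA and the products of the rps genes. These genes were taken from the Ensembl annotation of the nuclear genome (assembly WBcel235) as all protein-coding genes named rps followed by a number or a number and a letter. The name rule gave 31 genes of 19973 protein-coding genes. By the place of their proteins in the subunit, 13 belong to the head and 18 to the body and platform. Whether the zinc finger protein Y67H2A.10 was found at their promoters was read from chromatin immunoprecipitation with sequencing (ChIP-seq), which maps the DNA recovered with a protein.

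There was 1 group, young adult worms of strain RW12295 at 63 hours, grown from L1 larvae that had been bleach-synchronised and starved, with 2 biological replicates. In this strain the Y67H2A.10 gene on chromosome IV carries a TY1::EGFP::3xFLAG insertion made with CRISPR, and the immunoprecipitation used an antibody against GFP. All samples carried the tag, and untagged worms were not analysed here. Chromatin came from whole animals of 1 strain, so a higher signal in each cell and a signal in more cells cannot be told apart.

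The small subunit binds the messenger RNA and checks the match of codon and anticodon, and the large subunit joins amino acids. The head of the small subunit turns during translocation, and the messenger runs through a channel between the head and the body and platform. Ribosomal protein genes are among the most strongly expressed genes of a growing animal, and the worm germline makes large numbers of ribosomes for its oocytes. In C. elegans many messengers receive a spliced leader, so an annotated 5′ end can be a splice acceptor and not a start of transcription. Of the 31 rps genes, 23 (74.2%) had their start codon within 20 bp of an annotated 5′ end, against 55.4% of all protein-coding genes.

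Y67H2A.10 regions lay in the promoter windows of 12 of the 31 rps genes (38.7%, 95% Wilson interval 23.7 to 56.2). These were rps-0, rps-1, rps-4, rps-12, rps-14, rps-19, rps-20, rps-23, rps-24, rps-26, rps-28 and rps-30, each with 1 region not shared with another rps gene. The promoter window covered 500 bp before and 100 bp after any annotated 5′ end of a gene, and the gene counted when the summit of a region, its highest point, lay inside. The regions came from the conservative list, which keeps peaks whose rank recurs between the replicates at an irreproducible discovery rate (IDR) of at most 0.01. The same count was 14 of 47 (29.8%, 18.7 to 44.0) for the rpl genes of the large subunit, and 0 of 29 for the mrps genes of the mitochondrial small subunit, which allows a share of up to 11.7%. Over all protein-coding genes it was 461 of 19973, or 2.31%. The regions of rps-14 and rps-30 entered both the rps and the rpl count, the latter through rpl-36 and rpl-39. The intervals of rps and rpl genes overlapped, and no test was made between them. The intervals cover only the number of genes, since the lists hold no read counts and depth is unknown.

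The share of rps genes was also above that of all genes in the list of each replicate alone. The list of replicate 1 had a summit at 8 rps genes (25.8%, 13.7 to 43.2), against 8 rpl genes and 1.21% of all genes. The list of replicate 2 had one at 11 rps genes (35.5%, 21.1 to 53.1), against 12 rpl genes and 1.51% of all genes. The pooled list, like the conservative one, gives values over both replicates. In the pooled list 12 rps genes had a summit (38.7%), against 2.30% of all genes. The 11 rps regions in both of these lists had the same coordinates and signal, so the pooled list is not an independent check. The mrps genes had 1 summit of 29 genes (3.45%) in the list of replicate 1 and 1 in the pooled list, and 0 in that of replicate 2. The pooled list held rps-15 in place of rps-4. Among all ranked candidate peaks, before any threshold, 25 rps genes had a record (80.6%, 63.7 to 90.8), against 74.5% of rpl genes, 41.4% of mrps genes and 19.8% of all genes.

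**Figure D1:**
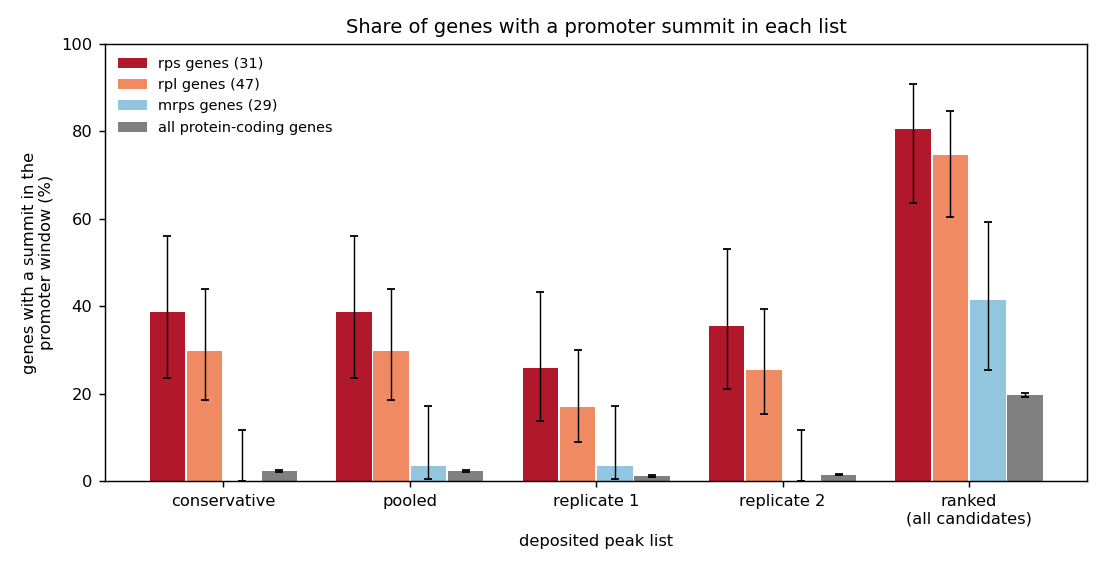
Share of genes with a summit in a promoter window, in percent, in each of 5 deposited peak lists, for 31 rps, 47 rpl and 29 mrps genes and all protein-coding genes; error bars are 95% Wilson intervals. In the conservative list the bars stand at 38.7% for rps, 29.8% for rpl, 0% for mrps and 2.31% for all genes.

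The choice of window and of gene assignment sets these counts. With a window from 200 bp upstream 1 rps gene, rps-12, kept its region (3.23%), beside 2 rpl genes (4.26%) and 1.13% of all genes. Each region was also given only to the nearest 5′ end within 500 bp on either side. With this rule 5 rps genes kept one (16.1%), namely rps-1, rps-4, rps-14, rps-24 and rps-28. Beside them stood 11 rpl genes (23.4%) and 1.83% of all genes. That last share is 365 genes, of which 345 were also in the main count of 461.

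The body and platform held 8 of the 12 genes with a region (44.4% of its 18 genes, 24.6 to 66.3) and the head 4 (30.8% of its 13 genes, 12.7 to 57.6), with intervals that overlap widely. The order of the shares changed with the list. For the body and platform against the head they were 22.2% and 30.8% in replicate 1, 38.9% and 30.8% in replicate 2, and 38.9% and 38.5% in the pooled list. The median deposited signal of the 12 regions was 169, with a range of 86.5 to 334. It was 109 for the other 342 regions in protein-coding promoters. Of the 12, 8 lay above that median and 3 were among the 100 regions of highest signal. The signal is the deposited signal value of a peak, on a scale not given in the sources used here.

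Leaving chromosome I aside, the highest signals among the rps genes belonged to rps-24, rps-23, rps-28 and rps-1. The protein of rps-24 (WBGene00004493, IV:385887-386606, plus strand) sits in the body of the subunit. Its region, IV:385471-385646, had a signal of 311, rank 24 of 666, and its summit lay 336 bp upstream. The signal was 171 in replicate 1 and 155 in replicate 2, at percentile 99.9 of the ranked records of each. No divergent gene lay near, as the next gene upstream, spl-1, was 2701 bp away. The protein of rps-23 (WBGene00004492, IV:12390298-12391053, minus strand) lines the decoding centre. Its region, IV:12391266-12391374, had a signal of 224 and rank 54, at percentile 99.8 of the ranked records of replicate 1 and 99.7 of those of replicate 2. The summit lay 286 bp upstream of rps-23 and 248 bp upstream of dpm-3, a gene of dolichol phosphate mannose synthesis on the other strand.

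The region of rps-28 (WBGene00004497, IV:1659691-1659997, plus strand), whose protein lies at the messenger exit, was IV:1659206-1659300. Its signal was 174, with 87.1 in replicate 1 and 95.4 in replicate 2. The summit lay 464 bp upstream, farther than in any other rps gene with a region, on sequence soft-masked as repetitive. The neighbour nhr-274 was 14392 bp away. The protein of rps-1 (WBGene00004470, III:4475918-4476876, plus strand) belongs to the platform. Its region, III:4475505-4475800, had a signal of 172 and rank 106, with 92.4 in replicate 1 and 73.5 in replicate 2. This summit, 265 bp upstream, lay inside the annotated non-coding RNA genes F56F3.10 and F56F3.11. All 4 regions stood high in both replicates, at percentile 99.4 or above.

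The bases within 50 bp of these 4 summits are shown because they carry the highest rps signals that are printed here. They are read 5′ to 3′ on the strand of the rps gene from the RefSeq sequence of WBcel235. Their positions are IV:385501-385601 for rps-24, IV:12391289-12391389 for rps-23, IV:1659177-1659277 for rps-28 and III:4475603-4475703 for rps-1. Capitals mark the word ACGCGC, or its reverse complement GCGCGT, which was found in earlier work on these regions.
rps-24: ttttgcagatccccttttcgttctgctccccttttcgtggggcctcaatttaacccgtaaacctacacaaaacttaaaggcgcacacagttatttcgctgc
rps-23: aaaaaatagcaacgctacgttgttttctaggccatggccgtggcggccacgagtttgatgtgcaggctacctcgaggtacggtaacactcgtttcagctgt
rps-28: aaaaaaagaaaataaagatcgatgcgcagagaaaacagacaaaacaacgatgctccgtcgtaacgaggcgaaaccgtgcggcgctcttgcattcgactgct
rps-1: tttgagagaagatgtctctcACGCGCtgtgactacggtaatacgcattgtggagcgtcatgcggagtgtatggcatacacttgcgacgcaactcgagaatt
The word was present in the window of rps-1 alone among the 12 (8.33%). It was in 0 of the 14 rpl summit windows and in 17.3% of all 666. In whole promoter windows, 5 of 31 rps genes (16.1%) and 10.2% of all protein-coding genes held it.

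Of the body and platform genes, 5 more had a region. The protein of rps-26 (WBGene00004495, I:14759930-14760626, plus strand) contacts the messenger at the exit. Its region, I:14759387-14759682, had a signal of 167, with 69.9 in replicate 1 and 98.9 in replicate 2. The summit was 395 bp upstream of rps-26, but 62 bp from the 5′ end of tmem-107, a gene of the ciliary transition zone, and within 200 bp of the snoRNA gene F39B2.14. It was the 1 rps region of 12 (8.33%) that near to a tRNA, snoRNA or snRNA gene, against 15.9% of all 666 regions.

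The other 4 regions of this group had the lowest signals of the 12. The protein of rps-0 (WBGene00004469, III:4753007-4754051, minus strand) lies on the solvent side of the subunit, and its region, III:4754216-4754511, had a signal of 108. That of rps-30 (WBGene00004499, V:7776578-7777225, plus strand), made as a fusion with a ubiquitin-like protein, lay at V:7776177-7776472 with a signal of 104. The rps-30 summit, like that of rps-1, lay inside annotated non-coding RNA genes, here C26F1.13 and C26F1.14. The rps-4 gene (WBGene00004473, IV:7083696-7084682, minus strand) had the region IV:7084839-7085134 with a signal of 93.7. For rps-14 (WBGene00004483, III:7178991-7179588, minus strand), whose protein is part of the platform next to the messenger exit, the region was III:7179675-7179970 with a signal of 86.5.

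These 4 were also the lowest 4 of the 12 in each replicate. In replicate 1 the signal was 40.6 for rps-0, 36.6 for rps-30, 47.7 for rps-4 and 40.1 for rps-14, between percentile 94.0 and 97.8 of its ranked records. None of them was in the thresholded list of replicate 1. In replicate 2 it was 65.0 for rps-0, 68.2 for rps-30, 43.8 for rps-4 and 46.5 for rps-14, between percentile 97.8 and 99.3. All but rps-4 were in that replicate's thresholded list. The region of rps-4 had an IDR of 0.00204 in the comparison of the replicates, and was in neither replicate's own list nor in the pooled one. At an IDR of 0.001 these 4 genes were lost and the other 8 stayed (25.8% of rps genes), against 1.36% of all genes.

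In the head, rps-19 (WBGene00004488, I:9625049-9625796, minus strand) had the highest signal of any rps gene. Its human counterpart is the gene most often mutated in Diamond-Blackfan anaemia. The region, I:9626002-9626151, had a signal of 334 and rank 22 of 666, with 160 in replicate 1 and 180 in replicate 2. The summit lay 280 bp upstream of rps-19 and 165 bp upstream of hsr-9, a worm relative of the DNA damage protein 53BP1. The protein of rps-20 (WBGene00004489, I:14468332-14469103, minus strand) is part of the head. Its region, I:14469177-14469472, had a signal of 174, with 77.4 in replicate 1 and 91.1 in replicate 2. That summit was 222 bp from rps-20 and 175 bp from ekl-4 on the other strand.

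The last head gene, rps-12 (WBGene00004481, III:5679298-5680187, plus strand), encodes a protein of the beak, a projection of the head. Its region, III:5678998-5679293, had a signal of 156, with 70.9 in replicate 1 and 88.7 in replicate 2. The summit lay 152 bp upstream, nearer than in any other rps gene with a region, and 141 bp from ska-3, whose product acts at the kinetochore. All 4 head genes with a region, rps-12, rps-19, rps-20 and rps-28, were in both replicates' own lists. Of the 8 body and platform genes, rps-1, rps-23, rps-24 and rps-26 were. These genes had been kept for recurring ranks, and no difference between head and body was tested. Of all 461 protein-coding genes with a region, 223 also had a summit in the list of replicate 1 and 275 in that of replicate 2. For the 12 rps genes these counts were 8 and 11.

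**Figure D2:**
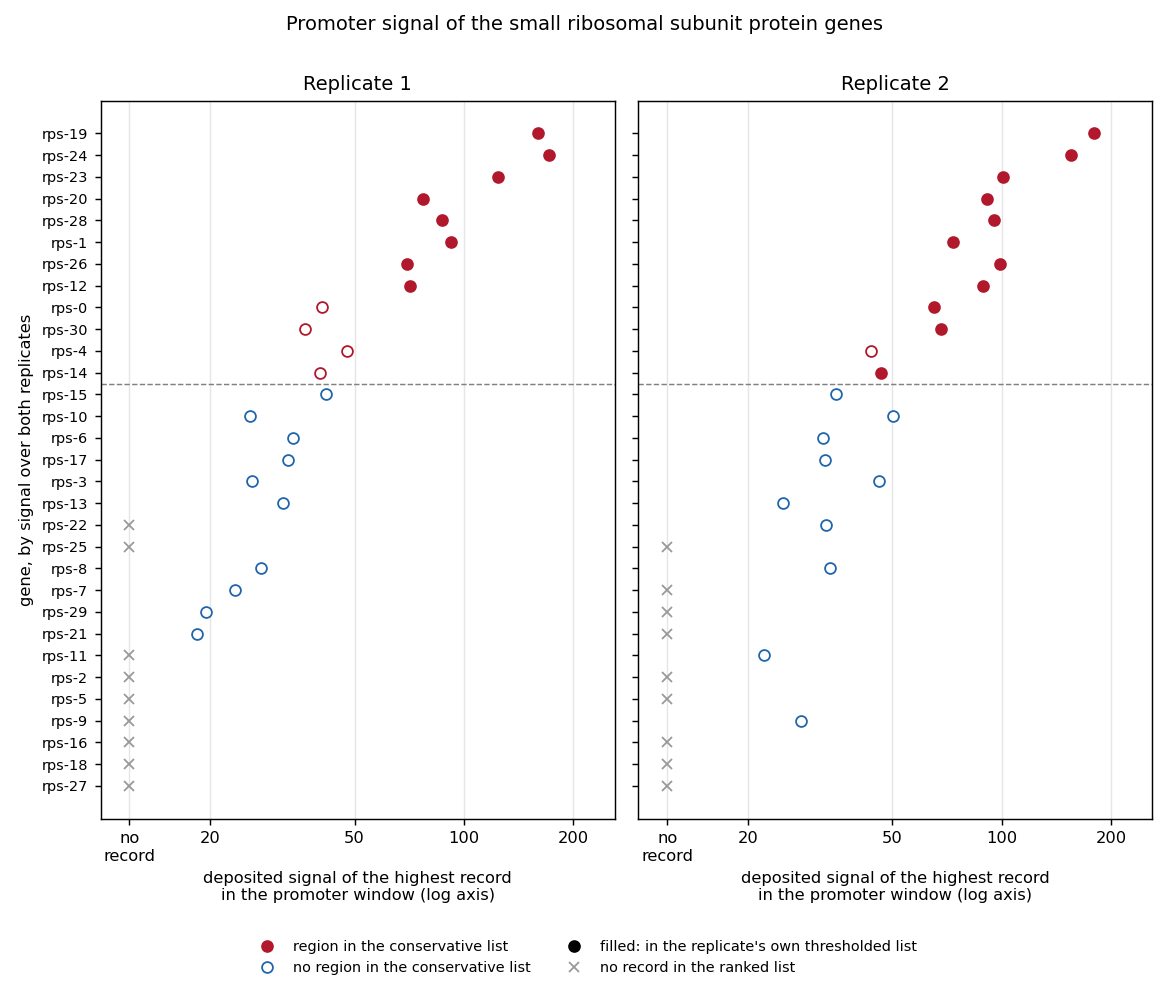
Deposited signal (log axis) of the highest record in the promoter window of each of the 31 rps genes, in the ranked list of replicate 1 (left) and replicate 2 (right); filled points are in that replicate's own thresholded list and crosses mark genes with no record. The 12 genes with a region in the conservative list run from 36.6 to 171 in replicate 1 and from 43.8 to 180 in replicate 2, led by rps-24 in replicate 1 and rps-19 in replicate 2.

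The order of the 12 genes was similar in both replicates. The first 3 by signal were rps-24, rps-19 and rps-23 in replicate 1 and rps-19, rps-24 and rps-23 in replicate 2. The largest shifts in the order were those of rps-1, the fourth in replicate 1 and the eighth in replicate 2, and of rps-26, the eighth in replicate 1 and the fourth in replicate 2. Across the 12 genes Spearman's rho was 0.818 and Pearson's r of the log2 signals 0.871. These describe genes that were kept because their peaks recurred, with each point from the same pair of libraries. The 12 were also kept for high and recurring ranks, so their percentiles are a description. Relative to all candidate peaks of replicate 1, they had a median percentile of 99.3, against 75.2 for the 10 other rps genes with a record. In replicate 2 it was 99.7, against 93.8 for 10 other rps genes with a record.

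Most of the 12 summits lay between the rps gene and a gene read in the other direction. The nearest upstream neighbour was divergent for 11 of the 12 genes with a region (91.7%), against 11 of the 19 without one (57.9%) and 45.4% of all protein-coding genes. The exception was rps-4, whose neighbour deb-1, the worm vinculin gene, lies 532 bp away on the same strand. Among the 11, the divergent neighbour was 2701 bp away at rps-24 and 14392 bp away at rps-28. A window of 500 bp can also reach the promoter of a divergent neighbour. The divergent share among all protein-coding genes with a region was not computed, so 91.7% cannot be called particular to rps genes. For 8 of the 12 the 5′ end of the divergent gene was itself within 500 bp of the summit. In 7 of these 8 the summit was nearer to the partner than to the rps gene, by the widest margin at rps-26 and rps-0. It was 313 bp from rps-0 and 60 bp from rbg-3. At rps-30 the partner is rpl-39, and the distances were nearly equal, 253 bp to rps-30 and 246 bp to rpl-39. The exception was rps-14, 235 bp from the summit, whose partner rpl-36 was 428 bp from it. The regions of rps-30 and rps-14 thus count for a gene of each subunit. Which gene of a pair a region acts on was not tested.

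**Figure D3:**
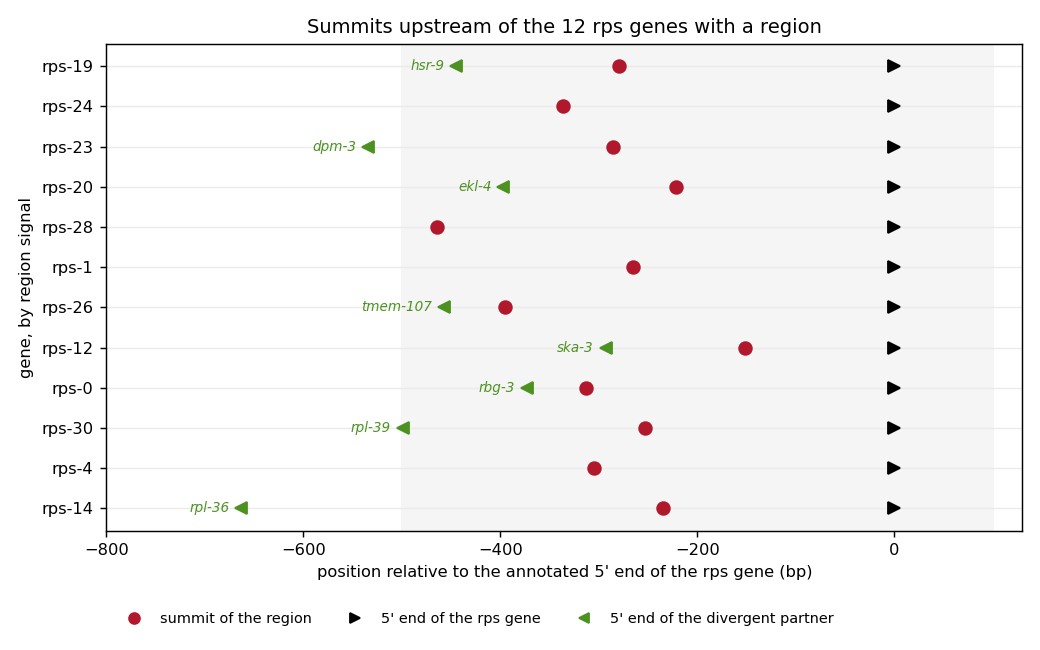
Position of the summit (circle) and of the partner's 5′ end (left-pointing triangle), in bp relative to the annotated 5′ end of each of the 12 rps genes with a region; the grey band is the promoter window. The summits lie from 464 bp upstream at rps-28 to 152 bp upstream at rps-12.

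The summits of the 12 rps genes lay a median of 283 bp upstream of the rps 5′ end, with quartiles of 248 and 319 bp. The median was 302 bp for the 14 pairs of an rpl gene and its region. It was 202 bp for all 458 pairs of a region and a gene other than rps, the rpl pairs included. Base composition at the summits gave close medians. GC within 50 bp of the summit had a median of 49.0% at rps genes, 50.5% at other promoter regions and 49.5% over all 666 regions. It was highest at rps-30 (56.4%) and lowest at rps-14 (38.6%). The GC of whole promoter windows was lower, with a median of 36.8% for rps genes with a region and 35.1% for those without one, against 34.6% for all protein-coding genes. The summit of rps-30, like that of rps-28, was soft-masked, which made 2 of 12 (16.7%), against 18.9% of all 666.

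The other 19 rps genes had no region in the conservative list, and 0 of them were in the thresholded list of either replicate. A candidate record lay in the promoter window of 13 of them, with a median signal of 51.5. Nearest to the threshold was rps-15, of the head, whose protein reaches the decoding centre, with a signal of 83.9 and an IDR of 0.0111. It had 41.8 in replicate 1 and 34.9 in replicate 2, and was in the pooled list. Just inside the threshold were rps-30 with an IDR of 0.00451 and rps-14 with 0.00438. At an IDR of 0.05, rps-15 and rps-6 would be added, which gives 14 rps genes (45.2%), against 3.08% of all genes. The product of rps-6, the classical substrate of S6 kinase, had a signal at its gene of 69.6 and an IDR of 0.0447, with 33.9 in replicate 1 and 32.3 in replicate 2.

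The other candidate records had higher IDRs. In the head, rps-10 had a signal of 77.1 (IDR 0.296), which comes from a promoter shared with rpl-24.1. Its signal was 25.8 in replicate 1 and 50.2 in replicate 2, which is percentile 70.4 and 98.6. The signal was 68.2 (IDR 0.0516) at rps-17 and 68.1 (IDR 0.250) at rps-3, a gene of the messenger entry. At rps-17 the replicates had 32.8 and 32.6, and at rps-3 they stood at percentile 71.9 and 98.1. Of the body and platform, rps-13 had 52.6 (IDR 0.203), rps-22 had 51.5 (IDR 0.742) and rps-8 had 51.1 (IDR 0.394). The head gene rps-25 had 51.5 (IDR 0.873), with no record in either replicate's own ranked list. The remaining 4, rps-7, rps-11, rps-21 and rps-29, had signals between 33.8 and 45.2.

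No ranked record was found in the windows of 6 genes, namely rps-2, rps-5, rps-9, rps-16, rps-18 and rps-27. In replicate 2 alone rps-9 had a record, with a signal of 28.1. A region did lie near 2 of the 6. For rps-18 (IV:14825679-14826477) the region IV:14824989-14825284, with a signal of 94.7, had its summit 542 bp upstream and so outside the window of 500 bp. The gap to its divergent neighbour sec-61.A was 414 bp, so the summit lay beyond the annotated 5′ end of sec-61.A. The rps-18 gene entered the count with a window of 1000 bp, which gave 13 rps genes (41.9%), against 3.01% of all genes. For rps-16, on V, the upstream neighbour 109 bp away on the same strand is fib-1, which encodes the ribosomal RNA methylase fibrillarin. The region V:15002150-15002445, with a signal of 139, lay 75 bp upstream of fib-1 and had its summit 1757 bp from rps-16. At rps-2 and rps-5 the nearest summit of the list was 20677 bp and 8202 bp away.

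To set beside the summit windows, the rps-2 promoter (IV:7926624-7926724, minus strand) is shown as the first gene by number with no record. Its window, of the same length, is centred 283 bp upstream, the median summit distance of the 12 genes with a region.
rps-2: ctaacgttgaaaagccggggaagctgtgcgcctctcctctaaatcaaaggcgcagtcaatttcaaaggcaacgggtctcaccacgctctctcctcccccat
Its GC was 54.5%, within the range of the 12 summit windows.

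After the summit windows had been examined, a word of 16 bases was found in 3 of the 12, those of rps-0, rps-20 and rps-30. It came from a scan for the longest word shared by at least 3 windows on either strand, so its presence in those 3 is the choice and not a result. The windows of rps-0 (III:4754314-4754414, minus strand) and rps-30 (V:7776275-7776375, plus strand) are shown with the word in capitals. A second scan, for the longest word in at least 2 windows, gave 18 bases shared by rps-14 and rps-19. They are in capitals in the rps-14 window (III:7179773-7179873, minus strand).
rps-0: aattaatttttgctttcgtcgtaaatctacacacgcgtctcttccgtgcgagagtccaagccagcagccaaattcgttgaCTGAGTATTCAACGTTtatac
rps-30: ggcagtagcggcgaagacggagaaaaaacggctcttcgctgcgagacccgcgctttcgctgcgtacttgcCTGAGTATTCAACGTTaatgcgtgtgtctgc
rps-14: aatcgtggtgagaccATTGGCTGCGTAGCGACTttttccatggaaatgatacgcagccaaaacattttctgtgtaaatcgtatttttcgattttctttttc
The word of 16 bases, CTGAGTATTCAACGTT, had 16 exact copies in the genome on both strands, of which 7 lay in conservative regions. Without the 3 copies that gave the word, 13 remained, of which 4 lay in conservative regions. The share of the genome in these regions was not computed, so this count has no background. Genes whose windows hold one of those 3 copies were left out of the next counts, among them rpl-39, which shares its promoter with rps-30. Of the other 28 rps genes 1 had a copy in its window (3.57%), rps-22. Of the other 46 rpl genes 3 had one (6.52%), rpl-7A, rpl-13 and rpl-32, and of all 19967 protein-coding genes left, rps and rpl genes included, 7 had one (0.0351%). The counts are small, and they were made on a word chosen from these windows.

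The copies in the windows of rps-22, rpl-7A and rpl-32 are shown with that of rps-0 for comparison, as those of ribosomal protein genes outside the 3 windows, and that of rpl-13 is not printed. Each is given as 31 bases on the strand that reads CTGAGTATTCAACGTT, the minus strand for rps-0 and the plus strand for the others. They come from II:9057431-9057461 for rpl-32, III:1950424-1950454 for rps-22, III:4754311-4754341 for rps-0 and IV:4390622-4390652 for rpl-7A. The rps-3 promoter (III:6206472-6206502) held the central 12 bases of the word, which are in capitals there, and not the full word. Before them the CT of the word was also present, and after them ct stood in place of TT.
rps-0: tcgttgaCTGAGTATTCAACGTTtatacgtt
rps-22: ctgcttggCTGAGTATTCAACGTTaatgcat
rpl-7A: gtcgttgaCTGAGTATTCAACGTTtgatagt
rpl-32: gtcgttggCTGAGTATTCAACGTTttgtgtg
rps-3: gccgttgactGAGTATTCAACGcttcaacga
The copy of rpl-7A lay in a region with a signal of 189. Those of rps-22 and rpl-32 had ranked records only, with a signal of 51.5 (IDR 0.742) and 59.6 (IDR 0.129), and rpl-13 had none. The central 12 bases had 27 copies in the genome. Without the 3 copies in the windows that gave the word, 24 remained, of which 4 lay in conservative regions. These 24 copies fell in the windows of 2 of the other 28 rps genes (7.14%), rps-3 and rps-22, and of 0.0551% of all protein-coding genes left. The copies at rps-3, rps-22 and rpl-13 read on the strand of their gene, and those at rpl-7A and rpl-32 on the other. A copy is a stretch of letters, and whether a factor binds it was not tested.

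**Figure D4:**
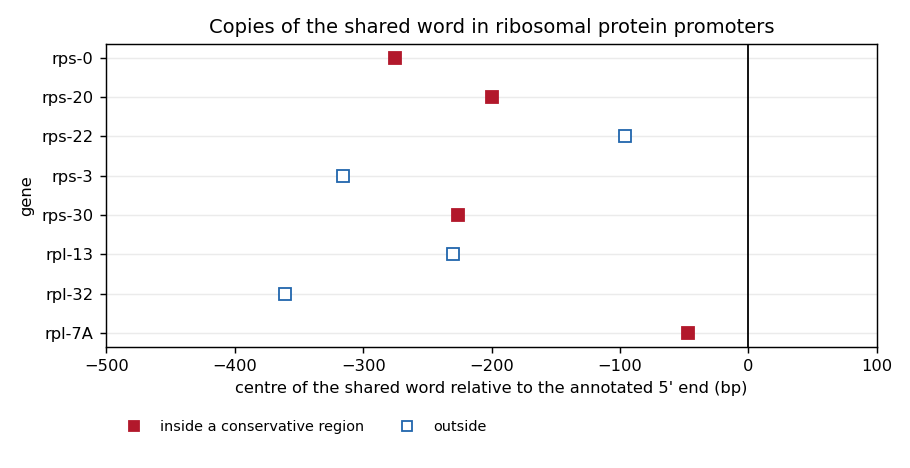
Centre of the shared word, in bp relative to the annotated 5′ end, for the ribosomal protein genes with a copy of its central 12 bases; filled squares lie in a conservative region and open squares outside one, and rpl-39 shares the copy drawn at rps-30. The 5 rps copies lie from 316 bp upstream at rps-3 to 96 bp upstream at rps-22, and those of rps-0, rps-20 and rps-30 are filled.

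Regions were also counted at other genes of ribosome production, without a test. Of 5 genes for proteins tied to the ribosome, ubl-1, rack-1, rla-0, rla-1 and rla-2, 0 had a region. The ubl-1 gene, which encodes a small subunit protein fused to a ubiquitin-like one and is not named rps, had a candidate record with a signal of 71.7 (IDR 0.0339). Among 28 genes of ribosome assembly and ribosomal RNA synthesis, 3 (10.7%) had one, against 2.31% of all genes. They were pro-1, which acts in ribosomal RNA processing and germline proliferation, with a signal of 160, fib-1 with 139, and nol-58, a partner of fibrillarin in small nucleolar particles, with 118. Of 9 genes of the TOR pathway and of cap binding, which set the rate of translation, 1 (11.1%) had a region, rheb-1, the small GTPase upstream of TOR, with a signal of 192. The S6 kinase gene rsks-1 had none. The highest rpl signals, 535 at rpl-3, 462 at rpl-15 and 341 at rpl-35, exceeded the highest rps signal, 334 at rps-19.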

How the data were processed

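ChIP-seq peak lists of 2 biological replicates were analysed, as 8 deposited lists on ce11, which is WBcel235. Peaks were called by the authors against a control on each replicate and on pooled reads, per the deposited text records. Aligner, peak caller and versions were not given in the sources used here. Of the values, the deposited signal is given per peak, on a scale that is not stated. The deposited score is a rescaled IDR of at most 1000. The ranked lists hold the deposited −log10 of the IDR, with IDRs down to 1.00e-05. The files hold no counts, so depth is unknown. In the ranked lists of the series 16 columns for the compared pair were not used. Of 743 ranked records at an IDR of at most 0.01, 34 are not in the conservative list, which has 709.

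Overlapping records were merged, keeping the summit and signal of the highest, which gave 666 regions. Summits were assigned to promoter windows of Ensembl release 115, and bases were read from the RefSeq sequence of the same assembly, with Python 3.11.15, numpy 2.4.6, scipy 1.17.1 and matplotlib 3.10.9. Chromosome ends were compared with the lists, and the assignment was tested on simulated summits. Positions are 1-based. Percentiles are within a list. Since there is 1 group, no test was made: shares have 95% Wilson intervals, and the share of all protein-coding genes is the background.

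The genes and gene lists were chosen with earlier results of these data known. Named were all rps genes with a region, their divergent partners, and the 10 rps genes of highest signal among those with only a ranked record. Genes named beyond this, the shared words, and the windows of rps-0, rps-14 and rps-30 were chosen after their values were seen. Of the 30 names listed for ribosome assembly, 2 matched no gene. Alternatives were the list of each replicate, the pooled list, other IDR thresholds, windows, overlaps and 5′ ends, and regions without small RNA genes or soft-masked summits, the last added after seeing the data. Sequence from 1 chromosome is not printed here.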

Additional observations from a re-analysis of the deposited data

How the results depend on the processing

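Of 50 alternative values, 40 stayed within 1.5 times the main count, or within 1 SD over the genes for a median, and 10 moved further. The window from 200 bp upstream gave 1 rps gene in place of 12, 2 rpl genes in place of 14, 226 of all genes in place of 461, and 5 rps genes with a ranked record in place of 25. Giving each region to the nearest 5′ end left 5 rps genes. An IDR of 0.001 left 271 of all genes. The lists of single replicates gave 8 to 11 rps genes, 8 to 12 rpl genes, 242 to 301 of all genes, and a median summit distance of 280 to 292 bp. The ranked list of each replicate alone gave 22 rps genes with a record, not all of them the same genes. The lower values came without replicate 2, except for the distance. GC within 100 bp of the rps summits was 43.8% in place of 49.0%. The other settings gave between 8 and 14 rps genes, with 10 left without soft-masked summits (rps-28 and rps-30 lost) and 11 without regions near small RNA genes (rps-26 lost). The causes were not tested. No paired analysis was possible because there is 1 group. The lists give no read depth, so a gene with no record is not shown to be free of the protein, and untagged worms were not analysed here.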

Other observations

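By chromosome, a region was present at 3 of the 8 rps genes of chromosome I, 0 of 1 on II, 4 of 9 on III, 4 of 10 on IV and 1 of 3 on V, and X holds no rps gene. The share of all protein-coding genes with a region was not computed by chromosome, so no difference between chromosomes is read from these counts. The word shared by rps-14 and rps-19 had 2 copies in the genome, both in the regions that gave it. Its central 12 bases had 11 copies, of which 4 lay in conservative regions. The other two of these regions were at vig-1, with a signal of 206, and at sqv-3, with a signal of 228. Of the 7 copies of the 16-base word in conservative regions, 3 lay away from ribosomal protein genes, in the ints-4 window with a signal of 173 and outside protein-coding promoter windows with signals of 445 and 373.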
